A study of Rattus norvegicus with 33 samples.

Results

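The genes described here encode mitochondrial ribosomal proteins, the proteins from which the ribosome inside mitochondria is built. They were taken as every row of the deposited value table whose single gene symbol is Mrpl or Mrps followed by a number, with the brightest row kept for each gene, which gave 68 genes of 14506 (41 named Mrpl and 27 named Mrps). RNA of the soleus, a slow postural hindlimb muscle, was measured in 33 female Wistar rats on Affymetrix arrays, 1 array per animal and 3 animals per group. In the SCI experiment (15 arrays), SCI animals had the spinal cord transected in the thorax at 9 weeks of age, had the gastrocnemius tendon cut and a sham implantation of the stimulator 14 weeks later, and gave tissue 17 weeks after transection. SCI-ES animals had the same transection and tendon section with a working stimulator, and from 16 weeks after transection received electrical stimulation (ES) for 1 hour a day over 1, 3 or 7 days. Sham-SCI animals had a laminectomy alone, with no tendon section and no implantation, so that transection and tendon section cannot be told apart in SCI versus Sham-SCI. In the GA experiment (18 arrays), intact animals of 22 to 23 weeks had the distal gastrocnemius cut free so that the soleus carried its load (gastrocnemius ablation, GA), or a sham operation that left the tendon in place (Sham-GA), and gave tissue after 1, 3 or 7 days. The series' own design text names 1, 2 and 7 days, whereas the sample labels used here name 1, 3 and 7 days.

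The mitochondrial ribosome translates the few messenger RNAs made from mitochondrial DNA, all of which encode core subunits of the respiratory chain and the ATP synthase. Its proteins are encoded in the nucleus, made on cytosolic ribosomes and imported, so that their messenger RNAs belong to the same nuclear program as the other proteins of oxidative phosphorylation. Compared with its bacterial ancestor it has less RNA and more protein, and many of its proteins have no bacterial counterpart. Slow muscle such as the soleus is rich in mitochondria. By structural class, 23 members are large-subunit proteins with a bacterial counterpart and 19 are large-subunit proteins particular to mitochondria, while 15 are small-subunit proteins with a bacterial counterpart and 10 are small-subunit proteins particular to mitochondria. Mrpl55 was not assigned. Mrps30 and Mrps18a carry small-subunit names but sit in the large subunit. Mrps36, whose product is now known as a subunit of the 2-oxoglutarate dehydrogenase complex, has no row among the genes used here.

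All values are log2 intensities as the authors' robust multi-array average (RMA) gave them, so a difference of 1 is a 2-fold change, and levels of different genes are not compared beyond their rank because each row has its own probes. Every one of the 68 members passed the filter on dim genes (a mean of at least 3). Their median level was 8.88, against 7.20 for all genes, and 67 of the 68 lay above the median of all genes. Mrpl42 (11.95), Mrps21 (11.08), Mrpl54 (11.04), Mrpl51 (10.85) and Mrpl52 (10.64) gave the brightest rows. Mrpl2 (6.99), Mrpl44 (7.43) and Mrpl1 (7.58) gave the dimmest. Group means of a member spanned 0.63 at the median (from 0.25 to 1.12) over the 11 groups, against 0.54 for all genes, while the median SD within a group was 0.200 for members and 0.188 for all genes. The members with the widest span were Mrpl16 (1.12), Mrps18b (1.10), Mrpl47 (1.07), Mrpl40 (1.04) and Mrpl4 (1.02). Mrps26 (0.25), Mrps11 (0.29) and Mrpl52 (0.35) had the narrowest.

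The members held their highest group mean mostly in 2 groups and their lowest mostly in 3. The highest mean was in Sham-SCI for 26 members and in SCI-ES 1 day for 22. The lowest was in GA 1 day for 23 members, in GA 7 days for 19 and in Sham-GA 7 days for 13. These counts set groups of both experiments side by side as a description, since surgery, age and time differ between them. The same counts were not made over all genes, so whether the pattern is particular to the members cannot be told.

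**Figure D1:**
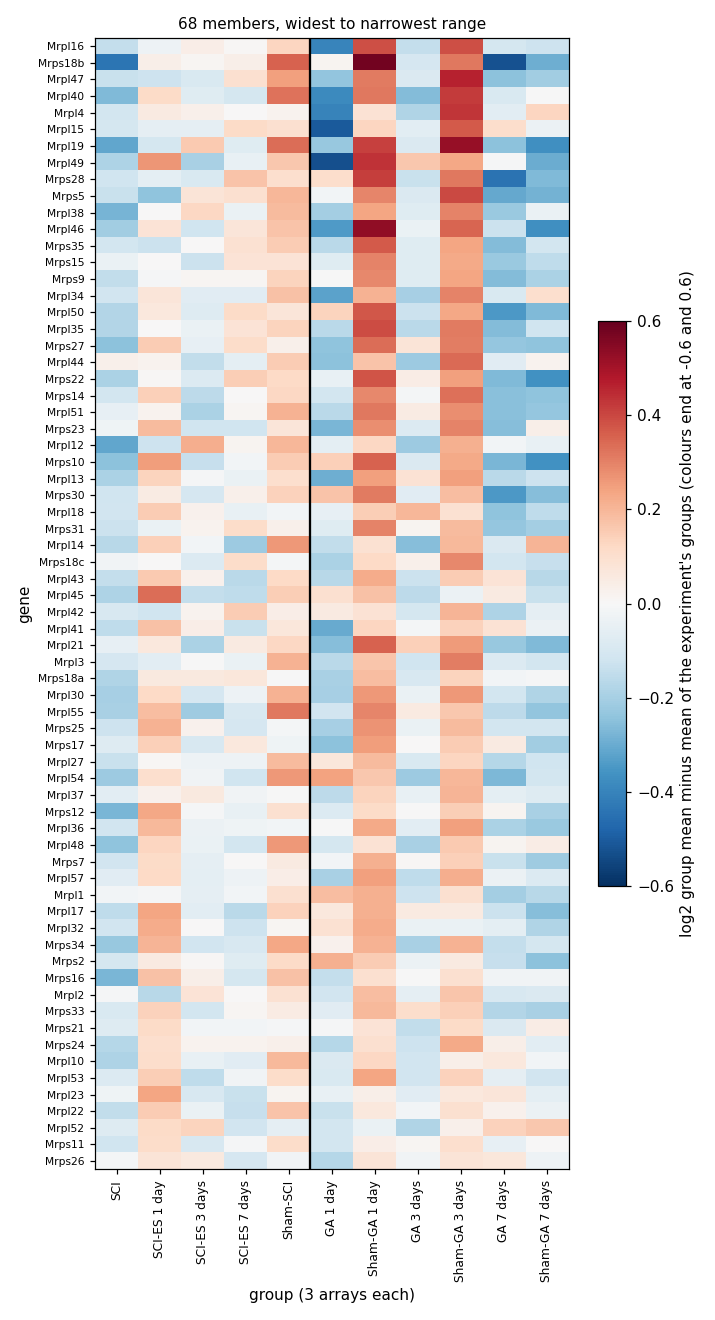
Group mean of each of the 68 members as log2 value minus the mean of the groups of the same experiment (red higher, blue lower; 3 arrays per group), with genes ordered from the widest span of group means (Mrpl16, 1.12) to the narrowest (Mrps26, 0.25). In the SCI experiment blue prevails in SCI and red in SCI-ES 1 day and Sham-SCI, and in the GA experiment red prevails in Sham-GA 1 day and Sham-GA 3 days.

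Promoter sequence was used to see what the members share around the annotated start, since the rule that chose them used only names. A window of 300 bases (250 before to 50 after the annotated start) was found in the RefSeq promoter table of build GRCr8 for 54 of the 68 members, and both strands were searched. The letters AAGATGGC, the core bound by YY1, a factor known from promoters of mitochondrial genes, occurred in 14 of the 54 windows (25.9%), against 3.92% of 19005 windows of protein-coding genes. The letters GCGC, 2 free bases and GCGC occurred in 11 (20.4%, against 7.97%). They are a loose form of the site of NRF-1, a regulator of nuclear genes for mitochondrial proteins. Of the 11, 4 had AT as the free bases, the full palindrome, which is counted in both (7.41%, against 1.14%). Mrpl45 held 7 matches of the loose letters and 0 of the full palindrome. The ETS core CCGGAAGT occurred in 8 (14.8%, against 4.99%). The 4 windows shown were picked from the members named in later results, and each holds a match. Mrps18b passed the test after transection, and Mrpl17 was lower at 7 days than at 1 day of ES without overlap. Mrpl49 and Mrpl46 lay lowest after 1 day of GA. Windows of other named members held no match, among them Mrpl40, Mrpl41, Mrpl12, Mrpl4, Mrps16, Mrps17 and Mrps23. Capitals mark the NRF-1 or YY1 letters on either strand.
Mrps18b, chr20:2842756-2843055, plus strand: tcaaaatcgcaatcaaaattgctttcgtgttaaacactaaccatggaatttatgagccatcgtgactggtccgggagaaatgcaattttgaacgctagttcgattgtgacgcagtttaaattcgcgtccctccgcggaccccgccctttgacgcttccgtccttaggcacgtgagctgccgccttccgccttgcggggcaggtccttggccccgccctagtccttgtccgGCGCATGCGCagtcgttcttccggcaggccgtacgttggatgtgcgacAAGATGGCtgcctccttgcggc
Mrpl17, chr1:169575650-169575949, minus strand: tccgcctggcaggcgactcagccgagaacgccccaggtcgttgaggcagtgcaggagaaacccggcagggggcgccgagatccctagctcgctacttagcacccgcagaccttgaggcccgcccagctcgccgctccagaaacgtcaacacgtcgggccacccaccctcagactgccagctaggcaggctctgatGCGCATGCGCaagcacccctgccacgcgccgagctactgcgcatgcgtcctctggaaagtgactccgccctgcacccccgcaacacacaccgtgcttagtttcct
Mrpl49, chr1:212779278-212779577, minus strand: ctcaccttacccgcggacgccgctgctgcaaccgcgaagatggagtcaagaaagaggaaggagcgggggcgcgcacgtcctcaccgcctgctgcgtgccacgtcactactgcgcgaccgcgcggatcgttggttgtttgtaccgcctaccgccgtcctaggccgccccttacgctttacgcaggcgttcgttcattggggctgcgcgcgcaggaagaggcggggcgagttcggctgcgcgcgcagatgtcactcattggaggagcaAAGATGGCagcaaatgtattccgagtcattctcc
Mrpl46, chr1:142116981-142117280, minus strand: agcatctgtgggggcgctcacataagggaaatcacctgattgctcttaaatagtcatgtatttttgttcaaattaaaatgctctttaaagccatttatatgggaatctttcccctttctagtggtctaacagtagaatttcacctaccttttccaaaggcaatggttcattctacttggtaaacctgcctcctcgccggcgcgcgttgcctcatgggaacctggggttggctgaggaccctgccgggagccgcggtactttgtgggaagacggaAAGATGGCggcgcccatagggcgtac
Counted from the annotated start, the NRF-1 letters lie at -20 to -11 in Mrps18b and at -55 to -46 in Mrpl17. The YY1 letters lie after the start and not upstream of it. They are at 28 to 35 in Mrps18b, at 16 to 23 in Mrpl49 and at 24 to 31 in Mrpl46. These letters include ATG, and whether it is the first codon of the protein was not checked. At GA 1 day versus Sham-GA 1 day, the 14 members with AAGATGGC had a median difference of -0.23 and the other 40 had -0.30. For the loose NRF-1 letters, with any 2 middle bases, the medians were -0.24 in 11 members and -0.30 in the other 43. At SCI-ES 1 day versus SCI the medians were 0.30 with and 0.21 without AAGATGGC. They were 0.31 with and 0.23 without the loose NRF-1 letters. These differences were not tested. A match of letters is not evidence of binding.

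Of the same 54 members, 17 (31.5%, against 6.99% of all windows) had the start of another protein-coding gene on the opposite strand within 1000 bases upstream. Mrpl46 and Mrps11 are such a pair, with 234 bases between their starts, and they differed in size of change: at GA 1 day versus Sham-GA 1 day, Mrpl46 was 0.88 lower and Mrps11 0.16 lower on the log2 scale. A dimmer row of Mrps11, not used here, was 0.32 lower, so the size of this contrast depends on the row. Mrpl49 lies 186 bases from Fau, which encodes a cytosolic ribosomal protein, and in the same comparison Mrpl49 differed by -0.96 and Fau by 0.16. Among the 12 pairs whose partner is no member and had a row, the median difference at GA 1 day was -0.39 for the members and -0.11 for the partners, with 7 of the 12 partners below 0 (51.8% of all genes). For SCI versus Sham-SCI the medians were -0.30 for the members and -0.17 for the partners, with 10 of the 12 partners below 0 (53.8% of all genes). For SCI-ES 1 day versus SCI they were 0.29 and 0.10, with 8 of the 12 partners above 0 (49.1% of all genes).

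The arrays had medians of 6.45 to 6.54 over the whole table, and the muscle was as labelled: the 9 fiber markers, among them Myh7 and Tnnt1 of slow fibers, lay at or above the percentile 98.9 of all genes. Several arrays stood apart from their group. To describe them, the median over the 68 members of each array's value minus the experiment's mean was taken. It was 0.41, -0.09 and 0.31 in Sham-GA 3 days, so that replicate 2 lay below the other 2. In GA 3 days it was -0.17, 0.13 and -0.16, and here replicate 2 lay above. The 8 cell division genes, measured the same way, were at -0.89, 1.41 and -0.46 in Sham-GA 3 days and at 1.42, 0.38 and 2.11 in GA 3 days, so that both replicates 2 lay toward the opposite group. In SCI, replicate 2 (-0.27) lay below the other 2 (-0.06 each), and its satellite cell markers were at 1.38, against -0.37 and -0.19. The SCI-ES 1 day array with the lowest value (replicate 1, -0.01, against 0.21 and 0.08) had satellite cell markers at 2.23, against 0.18 in both others. In 7 of the 11 groups the array lowest for the members was the one highest for the 9 fibroblast markers, and in 7 it was highest for the 12 macrophage markers. It was also highest in 8 groups for adipocyte markers and for cell division genes. The count was 7 each for endothelial markers, pericyte and smooth muscle markers and cytosolic ribosomal proteins. It was 6 for Schwann and nerve markers and 4 each for neutrophil and satellite cell markers. The array lowest for the members was also the lowest for the 74 subunits of oxidative phosphorylation in 8 of 11 groups, and for the 9 muscle fiber markers in 7. With 3 arrays in a group, an unrelated list would hold either place on that array in about 1 group of 3. The lists were scored on the same arrays, and these counts were not tested. The part of cell composition in the results was not tested, and in whole muscle fewer cells of a type and less RNA per cell cannot be told apart.

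**Figure D2:**
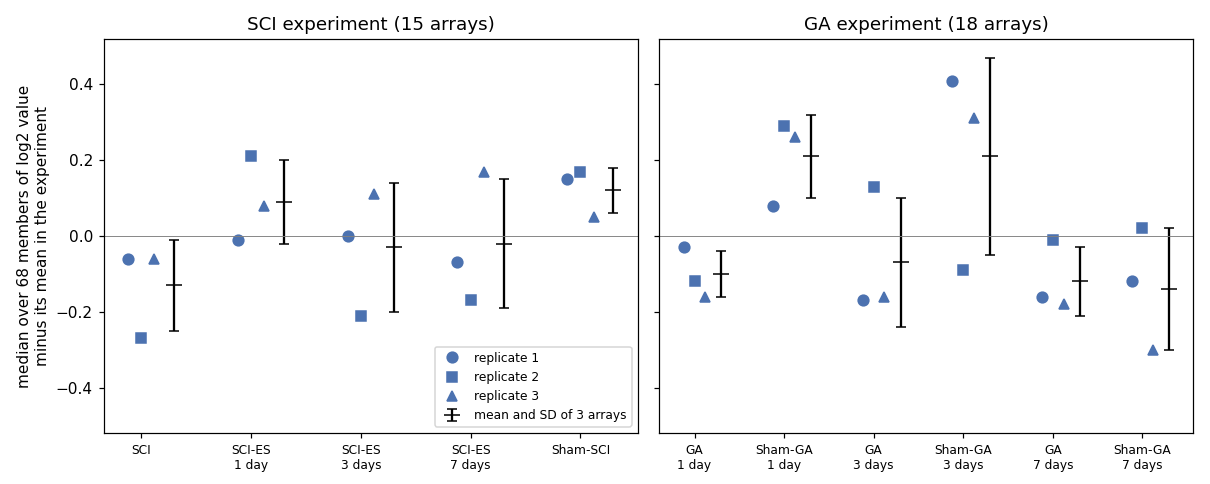
Median over the 68 members of the log2 value minus its mean in the experiment, for each of 33 arrays (symbols mark replicates; the black bar is the mean and SD of 3 arrays). Replicate 2 lies at -0.09 in Sham-GA 3 days and at 0.13 in GA 3 days, apart from the other 2 arrays of each group.

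After transection nearly the whole set was lower. In SCI versus Sham-SCI, 67 of the 68 members were below 0, against 53.8% of all genes, and the median log2 difference was -0.26, against -0.02 over the 14456 genes tested. In 35 members every SCI array lay below every Sham-SCI array (13.1% of all genes did), and no member was separated upward (9.14% of all genes were). Mrps18b, one of several mitochondrial relatives of a bacterial small-subunit protein and counted here among the proteins particular to mitochondria, was the only member past the test (limma, adjusted p under 0.05 over all genes; 0.470% of all genes passed). At an unadjusted p under 0.05 there were 19 members, all lower, against 8.17% of all genes lower at that p; the count was 11 without SCI replicate 2 and 9 without Sham-SCI replicate 2.

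Mrps18b read 9.10, 8.74 and 8.78 in SCI, against 9.59, 9.73 and 9.67 in Sham-SCI. The groups did not overlap, and the difference was -0.79 (SE 0.129, 0.578-fold, adjusted p = 0.0239). That call rested on all arrays but 1: it was kept without SCI replicate 1 and lost without any other of the 6, with adjusted p from 0.0515 to 0.116 and a difference of -0.72 to -0.83. Mrpl40, a large-subunit protein with no bacterial counterpart, read 9.47, 9.25 and 9.38 in SCI, against 9.95, 9.90 and 10.05 in Sham-SCI, again without overlap, and differed by -0.60 (SE 0.161, adjusted p = 0.120). Mrpl19, a large-subunit protein kept from bacteria, read 7.68, 7.62 and 7.99 in SCI, against 8.46, 8.70 and 8.09 in Sham-SCI, and differed by -0.65 (SE 0.237, adjusted p = 0.223). Neither passed the test. The remaining members ran from -0.52 (Mrpl12, a protein of the stalk that recruits translation factors) to 0.01 (Mrps26).

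All 4 structural classes had negative medians. The median was -0.29 for the 23 large-subunit proteins with a bacterial counterpart and -0.25 for the 19 particular to mitochondria. For the small subunit it was -0.22 in both classes, of 15 and 10 proteins. The 9 fibroblast markers were all higher in SCI than in Sham-SCI (median 1.51), and their summed level was 14.30 to 14.67 in SCI, against 13.28 to 13.63 in Sham-SCI. The 12 macrophage markers were higher in 11 cases (median 0.55). The 9 muscle fiber markers were lower in 6 cases (median -0.07), and their summed level was 16.29 to 16.43 in SCI, against 16.56 to 16.71 in Sham-SCI. None of these markers passed the test, and their part in the result was not tested.

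**Figure D3:**
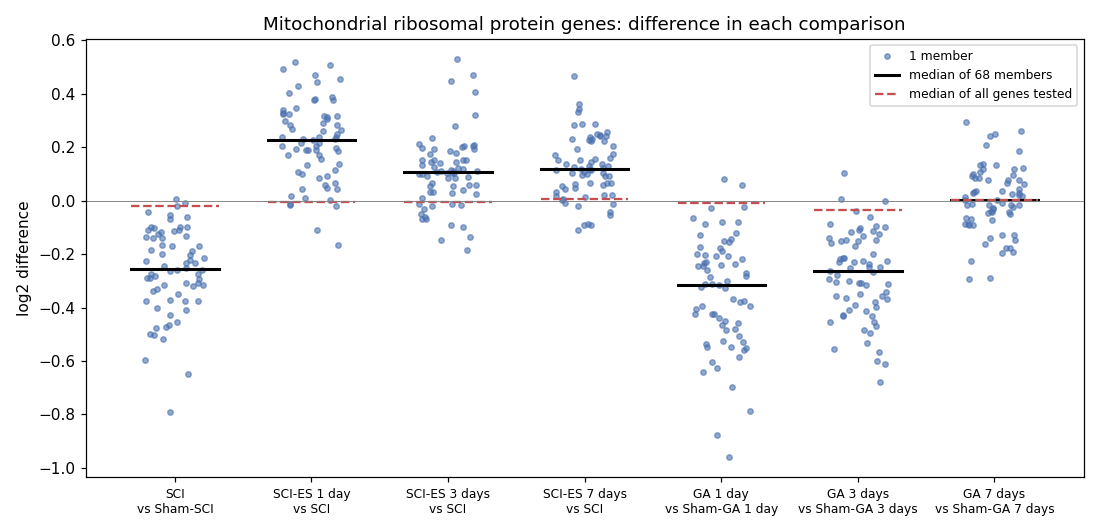
Log2 difference of each of the 68 members (points) in 7 comparisons, with the median of the members (black) and of all genes tested (red, dashed). The members' medians are -0.26 for SCI versus Sham-SCI, 0.23, 0.11 and 0.12 for SCI-ES at 1, 3 and 7 days versus SCI, and -0.31, -0.26 and 0.002 for GA at 1, 3 and 7 days versus Sham-GA.

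After 1 day of ES the members were mostly above unstimulated SCI muscle, although none passed the test and no gene of the whole table did (0% of 14456). The 3 SCI arrays that are lower in the comparison with Sham-SCI are also the reference here, so that the ES comparisons and the SCI comparison share them. SCI animals carried no stimulator and gave tissue 21 days after the sham implantation. SCI-ES animals carried one, and at 1 and 3 days of ES they gave tissue sooner after tendon section and implantation. The device and this difference in time cannot be told apart from ES. In SCI-ES 1 day versus SCI, 63 of the 68 members were above 0 (49.1% of all genes were), with a median of 0.23, against -0.004 over all genes. In 27 members every SCI-ES array lay above every SCI array (6.02% of all genes), and none was separated downward (5.36% of all genes). There were 24 members at an unadjusted p under 0.05, all higher, against 4.86% of all genes higher at that p. The count was 14 without SCI-ES 1 day replicate 2, 14 without SCI replicate 2 and 12 without SCI-ES 1 day replicate 1 and SCI replicate 2 together, the arrays with high satellite cell markers, and the median was then 0.20. The count was also 12 when the arrays were quantile normalized again.

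Mrps12, a protein of the decoding center of the small subunit, read 8.98, 9.10 and 8.97 in SCI-ES 1 day, against 8.56, 8.53 and 8.43 in SCI. The groups lay well apart, and the difference was 0.51 (SE 0.106, adjusted p = 0.546). Mrpl45, which in mammals ties the large subunit to the inner membrane, read 10.90, 10.28 and 10.98 in SCI-ES 1 day, against 10.13, 10.27 and 10.19 in SCI, and differed by 0.52 (SE 0.174, adjusted p = 0.614). Its replicate 2 lay just above the highest SCI array. Mrps10, a small-subunit protein kept from bacteria, read 8.89, 8.90 and 9.02 in SCI-ES 1 day, against 8.63, 8.08 and 8.62 in SCI (0.49, SE 0.184, adjusted p = 0.643). At the other end were Mrpl2 (-0.17) and Mrps5 (-0.11). The class medians lay between 0.19 and 0.24. Of the 9 fibroblast markers 8 were lower in SCI-ES 1 day (median -0.52), and their summed level was 14.09 to 14.45 in SCI-ES 1 day, against 14.30 to 14.67 in SCI. The 7 pericyte and smooth muscle markers were all lower (median -0.28, summed level 11.80 to 12.29 in SCI-ES 1 day, against 12.32 to 12.62 in SCI). Neutrophil markers were higher in 6 of 7 (median 0.16, summed level 8.18 to 9.10 in SCI-ES 1 day, against 8.03 to 8.12 in SCI). The part of these markers in the result was not tested.

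At 3 and 7 days of ES most members were above SCI, with smaller medians than at 1 day. In SCI-ES 3 days versus SCI, 54 members were above 0 (48.3% of all genes), the median was 0.11, 6 members were separated upward (3.55% of all genes) and none passed the test (0% of all genes). In SCI-ES 7 days versus SCI, 59 were above 0 (51.9% of all genes), the median was 0.12, 4 were separated upward (4.29% of all genes) and none passed (0% of all genes). At an unadjusted p under 0.05 there were 4 members at 3 days and 1 at 7 days, all higher (1.38% of all genes were higher at that p at 3 days and 1.91% at 7 days). The count was 1 without SCI-ES 3 days replicate 1 or 3 at 3 days, and 6 without SCI-ES 7 days replicate 2 at 7 days. The values at 7 days depended on SCI-ES 7 days replicate 3, without which 54.4% of the members were above 0 and the median was 0.02. Without SCI replicate 2 the medians were 0.03 at 3 days and 0.06 at 7 days. Mrps18b was separated from SCI at all 3 times: it read 9.35, 9.53 and 9.15 at 1 day, 9.29, 9.19 and 9.48 at 3 days and 9.24, 9.29 and 9.48 at 7 days of ES, against 9.10, 8.74 and 8.78 in SCI. All 9 stimulated arrays lay above the 3 SCI arrays and below the 3 Sham-SCI arrays. Mrps18b is also the member that passed in SCI versus Sham-SCI, on these same SCI and Sham-SCI arrays. Values between the 2 groups follow in part from that choice, and no conclusion is drawn from them. The differences of Mrps18b from SCI were 0.47, 0.45 and 0.47 (SE 0.129 each), with adjusted p = 0.5459, 0.9995 and 0.9996 over all genes.

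Mrps12 was also separated at all 3 times, and other members at 1 or 2 of them. Mrpl12 read 9.61, 9.53 and 9.56 at 3 days, against 9.33, 8.49 and 9.30 in SCI (0.53, SE 0.249), a difference set largely by SCI replicate 2. Mrpl38, a large-subunit protein with no bacterial counterpart, differed by 0.41 at 3 days (SE 0.168). At 7 days Mrps12 read 8.72, 8.67 and 8.82, against 8.56, 8.53 and 8.43 in SCI (0.23, SE 0.106), and Mrps16, a small-subunit protein kept from bacteria, read 8.43, 8.41 and 8.45, against 8.36, 8.12 and 8.28 (0.17, SE 0.115).

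Set directly against each other, SCI-ES 7 days and SCI-ES 1 day differed by a median of -0.11 over the members, with 49 of 68 lower at 7 days (46.1% of all genes) and none past the test (0% of all genes). There, 11 members were separated downward (8.79% of all genes), and 13 were lower at an unadjusted p under 0.05 (7.75% of all genes). That count was 6 without SCI-ES 7 days replicate 1, 5 without SCI-ES 7 days replicate 2 and 5 when the arrays were quantile normalized again, and the median was -0.04 without SCI-ES 7 days replicate 2 and -0.19 without SCI-ES 7 days replicate 3. Mrpl17, a large-subunit protein kept from bacteria, read 9.69, 9.77 and 9.97 at 7 days, against 10.31, 10.20 and 10.11 at 1 day, and differed by -0.40 (SE 0.112, adjusted p = 0.249). At 7 days it overlapped SCI (9.74, 10.00 and 9.73). Mrpl23, which lies near the exit of the peptide tunnel, read 10.46, 10.34 and 10.61 at 7 days, against 10.99, 10.76 and 10.77 at 1 day (-0.37, SE 0.112). Mrpl41 differed by -0.32 (SE 0.107). The groups also differ in the time since tendon section and implantation, which cannot be told apart from the length of ES.

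**Figure D4:**
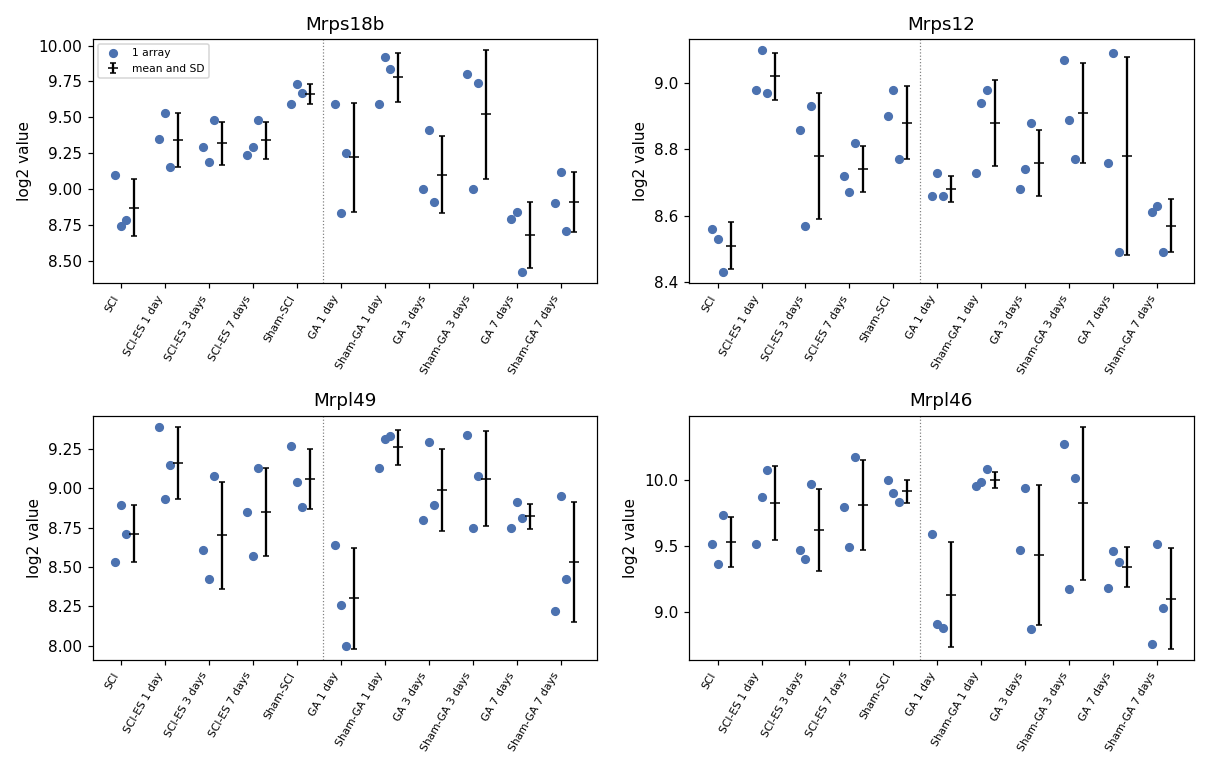
Log2 values of 4 members on each array (points) with the mean and SD of 3 arrays (black), the SCI experiment left and the GA experiment right of the dotted line; the axes do not start at 0. Mrps18b averages 8.87 in SCI and 9.66 in Sham-SCI, Mrps12 averages 9.02 in SCI-ES 1 day and 8.51 in SCI, and Mrpl49 and Mrpl46 average 8.30 and 9.13 in GA 1 day, against 9.26 and 10.00 in Sham-GA 1 day.

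After 1 day of overload the members lay mostly below the sham operation. In GA 1 day versus Sham-GA 1 day, 66 of the 68 members were below 0 (51.8% of all genes), with a median of -0.31, against -0.01 over 14451 genes. Every GA array lay below every Sham-GA array in 37 members (11.1% of all genes), and no member was separated upward (5.56% of all genes). None passed the test (0.0554% of all genes did, 8 genes, all higher). At an unadjusted p under 0.05 there were 32 members, all lower, against 9.00% of all genes lower at that p. The count was 19 without GA 1 day replicate 3, 20 without Sham-GA 1 day replicate 2 or 3, and 17 when the arrays were quantile normalized again.

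Mrpl49, a large-subunit protein with no bacterial counterpart, was lowest of all: it read 8.64, 8.26 and 8.00 in GA 1 day, against 9.13, 9.31 and 9.33 in Sham-GA 1 day. Its difference was -0.96 (SE 0.203, 0.514-fold, adjusted p = 0.118), and it passed without Sham-GA 1 day replicate 1 (-1.02, adjusted p = 0.0488) and in a fit of all 33 arrays (adjusted p = 0.0289). Mrpl46, another protein particular to mitochondria, read 9.59, 8.91 and 8.88 in GA 1 day, against 9.95, 9.98 and 10.08 in Sham-GA 1 day, and differed by -0.88 (SE 0.295, adjusted p = 0.219). GA replicate 1 lay nearer to the sham arrays than the other 2 did. Mrpl16, a large-subunit protein kept from bacteria, read 9.38, 8.89 and 9.11 in GA 1 day, against 9.72, 9.87 and 10.13 in Sham-GA 1 day (-0.79, SE 0.215, adjusted p = 0.157). Only Mrpl54 (0.08) and Mrps2 (0.06) were above 0.

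By class, the median at GA 1 day was -0.30 for large-subunit proteins with a bacterial counterpart and -0.38 for those particular to mitochondria, and -0.27 and -0.44 for the same classes of the small subunit. Of the 9 fibroblast markers 7 were below 0 as well (median -0.09), and their summed level was 13.46 to 14.04 in GA 1 day and 13.65 to 14.02 in Sham-GA 1 day. The macrophage markers were higher in 9 of 12 (median 0.49), with summed levels of 13.89 to 14.44 in GA 1 day and 13.20 to 14.49 in Sham-GA 1 day. Neutrophil markers were higher in 6 of 7 (median 0.28), with summed levels of 9.42 to 10.71 in GA 1 day and 8.16 to 9.95 in Sham-GA 1 day. Adipocyte markers were lower in 5 of 6 (median -0.22), with summed levels of 9.54 to 9.76 in GA 1 day and 9.79 to 10.07 in Sham-GA 1 day. Their part in the result was not tested.

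At 3 days the result depended on single arrays, above all on the 2 that stood apart. With all arrays, GA 3 days versus Sham-GA 3 days had 65 of 68 members below 0 (55.2% of all genes), a median of -0.26, against -0.03 over all genes, 9 members separated downward (7.64% of all genes), 22 lower at an unadjusted p under 0.05 (8.19% of all genes) and none past the test (0% of all genes). Without Sham-GA 3 days replicate 2, 19 members passed, all lower (10.7% of all genes passed), and the median was -0.44. Without the replicates 2 of both groups, a choice made after the values were seen, 38 members passed, all lower (3173 of 14451 genes passed, 22%), with a median of -0.55. Without GA 3 days replicate 2 alone none passed. The count at an unadjusted p under 0.05 was 46 without Sham-GA 3 days replicate 2 and 35 without GA 3 days replicate 2, but 4 to 7 without any other array of the 6. Mrpl4, whose product lines the peptide exit tunnel, read 9.91, 9.99 and 9.84 in GA 3 days, against 10.75, 10.15 and 10.65 in Sham-GA 3 days. The groups did not overlap, and the difference was -0.60 (SE 0.203, adjusted p = 0.288). Mrpl12 read 8.76, 8.80 and 8.92 in GA 3 days, against 9.46, 8.94 and 9.37 in Sham-GA 3 days (-0.43, SE 0.168), and Mrps34, a small-subunit protein particular to mitochondria, read 7.35, 7.44 and 7.48, against 8.03, 7.49 and 7.93 (-0.40, SE 0.171). In all 3 the sham array nearest to GA was replicate 2, and all 3 passed without it (adjusted p = 0.0337, 0.0427 and 0.0499). Fibroblast markers were higher in 9 of 9 (median 1.11) and cell division genes in 8 of 8 (median 1.23), none past the test.

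At 7 days of overload the median of the members was near 0. In GA 7 days versus Sham-GA 7 days, 35 members were above 0 (50.2% of all genes), the median was 0.002, against 0.001 over all genes, none passed the test (0% of all genes) and none reached an unadjusted p under 0.05 (2.63% of all genes did). The share of members above 0 was 29.4% without Sham-GA 7 days replicate 3 and 72.1% without Sham-GA 7 days replicate 2. Mrps17, kept from bacteria in the small subunit, read 9.12, 9.20 and 9.19 in GA 7 days, against 8.90, 8.96 and 8.87 in Sham-GA 7 days (0.26, SE 0.136) and was the only member separated upward (4.86% of all genes). Mrps23 (-0.29, SE 0.167) and Mrpl35 (-0.14, SE 0.194) were the 2 separated downward (6.35% of all genes). Averaged over the 3 days, GA stood below Sham-GA in 67 of 68 members (54.2% of all genes), with a median of -0.19 and none past the test (0% of all genes). At an unadjusted p under 0.05 there were 30 members, all lower (11.3% of all genes), and 18, 49 and 19 without Sham-GA 3 days replicates 1, 2 and 3. Without Sham-GA 3 days replicate 2, 23 passed (10.4% of all genes) and without the replicates 2 of both 3-day groups 35 passed (21.2% of all genes). Without Sham-GA 1 day replicate 1, 8 passed (6.46% of all genes).

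The change of the GA effect with time was tested as an interaction. The effect at 7 days minus that at 1 day had a median of 0.31 over the members (0.01 over all genes), with 63 of 68 above 0 (51.7% of all genes), 15 higher at an unadjusted p under 0.05 (5.23% of all genes) and none past the test (0% of all genes). The count of 15 was 8 without GA 1 day replicate 2 or GA 7 days replicate 2, 9 without Sham-GA 7 days replicate 3, 9 after a repeated quantile normalization and 7 with equal array medians. Mrpl49 had the highest value, 1.26 (SE 0.287, adjusted p = 0.391). Both arms were then compared over time, a pair of comparisons added after the values were seen. In Sham-GA 7 days versus Sham-GA 1 day, 65 of 68 members were below 0 (55.2% of all genes), the median was -0.36, 40 were separated downward (18.1% of all genes), and 14 fell past the test with none higher (10.3% of all genes passed). In GA 7 days versus GA 1 day the median was 0.02, 36 were above 0 (42.9% of all genes), and 1 passed, Mrpl15 (0.60, adjusted p = 0.0486; 12.5% of all genes passed). There, 5 members were separated upward (16.7% of all genes) and 8 downward (18.4%), the ends being Mrpl15 and Mrpl49 (0.53) and, downward, Mrps28 (-0.55), Mrps30 (-0.52) and Mrpl54 (-0.51).

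The sham comparison over time rested on few arrays. Mrps18b read 8.90, 9.12 and 8.71 in Sham-GA 7 days, against 9.59, 9.92 and 9.84 in Sham-GA 1 day, and fell by 0.88 on the log2 scale (SE 0.227, adjusted p = 0.0236). Mrpl17 read 9.79, 10.05 and 9.63 in Sham-GA 7 days, against 10.30, 10.27 and 10.31 in Sham-GA 1 day (-0.47, SE 0.113, adjusted p = 0.0161). The other 12 that fell were Mrps22 (-0.74), Mrpl49 (-0.73), Mrps10 (-0.72), Mrps28 (-0.69), Mrpl50 (-0.65), Mrpl21 (-0.61), Mrps30 (-0.57), Mrpl55 (-0.53), Mrps31 (-0.51), Mrps17 (-0.46), Mrps7 (-0.43) and Mrps2 (-0.40). The count of 14 was 0 without Sham-GA 7 days replicate 3 and 0 without Sham-GA 1 day replicate 3, 2 without Sham-GA 1 day replicate 2, 3 without Sham-GA 7 days replicate 1, 7 without Sham-GA 1 day replicate 1 and 12 without Sham-GA 7 days replicate 2, while 3.73% to 7.99% of all genes passed under these settings. Over the same interval the 9 fibroblast markers were all higher, 7 of them past the test (median 2.24), with summed levels of 15.07 to 15.52 in Sham-GA 7 days and 13.65 to 14.02 in Sham-GA 1 day. Their part in the result was not tested.

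Whether ES and GA differed at the same time was tested in a fit of all 33 arrays, as the ES effect (SCI-ES minus SCI) minus the GA effect (GA minus Sham-GA). At 1 day all 68 members were above 0 (50.6% of all genes), with a median of 0.55, against 0.005 over 14453 genes. The arrays are those of the separate ES and GA comparisons at 1 day. The value therefore combines those results and adds no independent one. There were 46 members at an unadjusted p under 0.05, all higher (9.03% of all genes), and none past the test (0.0554% of all genes passed). The count of 46 was 27 when the arrays were quantile normalized again. Mrpl49 had the highest value, 1.40 (SE 0.288, adjusted p = 0.0675), and Mrpl42 the lowest, 0.01 (SE 0.220, adjusted p = 0.992). Between 0 and 7 members passed when 1 array was left out, 7 without GA 1 day replicate 1 (0.602% of all genes) and 6 without Sham-GA 1 day replicate 1 (0.706% of all genes). At 7 days 54 of 68 were above 0 (50.5% of all genes), the median was 0.12, 1 member was higher at an unadjusted p under 0.05 (2.00% of all genes), namely Mrps18b (0.69, SE 0.273, adjusted p = 0.9995), and none passed (0% of all genes). The animals of both experiments also differ in age, transection and tendon section, which cannot be told apart from the difference between ES and GA.

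Proteins that work with the mitochondrial ribosome lay mostly on the same side as its own proteins, and none of them passed the test in the SCI, ES or GA comparisons at a single time. At SCI versus Sham-SCI, 8 of 9 translation factors were below 0 (median -0.38), with Taco1, an activator of translation of a cytochrome oxidase subunit, lowest (-0.61, adjusted p = 0.197). In the same comparison 9 of 11 mitochondrial aminoacyl-tRNA synthetases (median -0.23), 18 of 20 assembly factors (median -0.16) and 11 of 14 genes of mitochondrial DNA expression (median -0.22) were below 0. At SCI-ES 1 day versus SCI, 9 of 9 translation factors (median 0.18) and 18 of 20 assembly factors (median 0.16) were above 0. The median deviation per array of the translation factors was -0.17, 0.21 and -0.07 in SCI-ES 1 day, overlapping SCI (-0.08, -0.28 and -0.08). Assembly factors and synthetases overlapped as well (means 0.06 in SCI-ES 1 day and -0.09 in SCI for each list). Genes of mitochondrial DNA expression did not overlap (means 0.09 and -0.09). At GA 1 day versus Sham-GA 1 day, all 9 translation factors (median -0.27), all 11 synthetases (median -0.26), all 14 genes of mitochondrial DNA expression (median -0.25) and 18 of 20 assembly factors (median -0.31) were below 0. Rbfa, which matures the small subunit, was lowest among the assembly factors (-0.82, adjusted p = 0.122). The 8 nuclear regulators of mitochondrial genes were split there, with 4 below 0 and a median of 0.05, between the coactivator Ppargc1a (-0.84, adjusted p = 0.347) and Myc (0.97). Ppargc1a differed by 0.01 in SCI versus Sham-SCI.

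The 74 nuclear-encoded subunits of oxidative phosphorylation had medians of the following sizes. At SCI versus Sham-SCI 70 of 74 were below 0 (median -0.23). At SCI-ES their medians were 0.05 at 1 day, 0.19 at 3 days and 0.17 at 7 days, against 0.23, 0.11 and 0.12 for the mitochondrial ribosomal proteins. For GA they were -0.20, -0.52 and -0.15 at 1, 3 and 7 days, against -0.31, -0.26 and 0.002. The 71 proteins of the cytosolic ribosome had medians near 0 in the SCI experiment (0.01 to 0.04) and above 0 with GA (0.06, 0.17 and 0.12 at 1, 3 and 7 days), with 69 of 71 higher at GA 3 days. No gene of either list passed in these comparisons. The differences between lists were not tested.

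**Figure D5:**
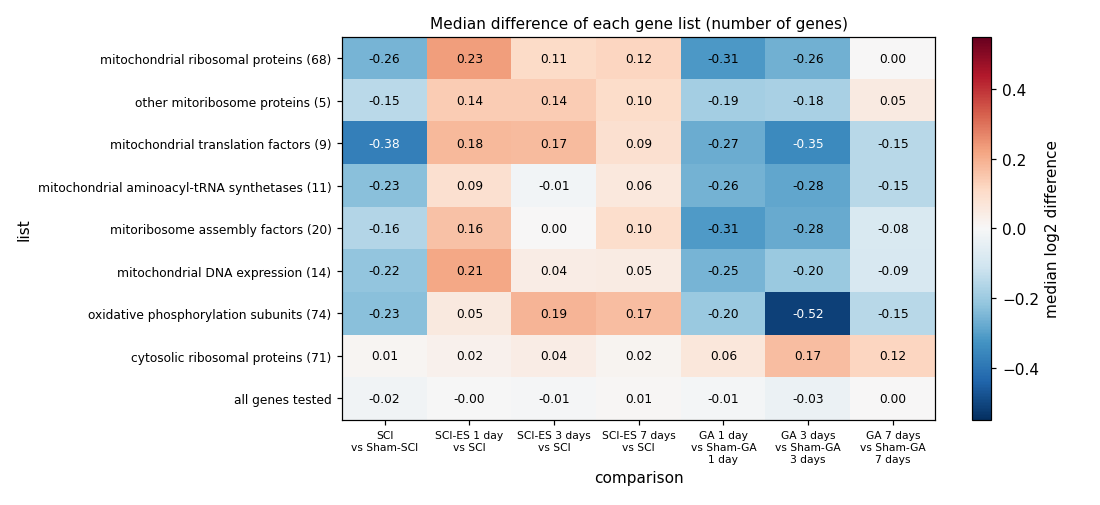
Median log2 difference of 8 gene lists (number of genes with a row in parentheses) and of all genes tested, in 7 comparisons (red higher, blue lower). The mitochondrial ribosomal proteins are at -0.26 after transection, at 0.23 after 1 day of ES and at -0.31 after 1 day of GA, whereas the cytosolic ribosomal proteins lie between 0.01 and 0.17 throughout.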

How the data were processed

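RNA from the soleus of 33 rats was hybridised to Affymetrix arrays, which the study's methods call rat exon 1.0 ST arrays. The deposited values are log2 intensities that the authors made with RMA in oligo (background subtraction, quantile normalization and median polish), and versions are not given in the sources used here. The value table had 29214 rows, of which 15310 carried a single gene symbol in the platform annotation (14506 genes), 323 carried several symbols and 13581 carried none. One row shared by a member and another gene was left out, and 4 members had 2 rows, of which the brighter was used.

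Genes with a mean of at least 3 in the experiment were tested with limma 3.58.1 in R 4.3.3 (lmFit and eBayes, a mean per group, SCI and GA experiments fitted apart), with Benjamini-Hochberg adjustment over all genes and a threshold of 0.05. The fit was tested on simulated data with known changes. ES was set against GA in a fit of all 33 arrays. The labels do not say whether animals of 1 group were handled on separate days. The p-values rest on the spread between arrays within groups, pooled over the groups of a fit. In that spread, handling and array effects cannot be told apart from differences between animals. With 3 arrays per group the precision is limited.

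The members named are the 5 brightest and 3 dimmest, the 5 with the widest and 3 with the narrowest span of group means, in each comparison up to 10 a direction past the test, and, where fewer than 3 passed, the 3 highest and 3 lowest among those whose groups did not overlap; the ends of a comparison's range and the partners of promoters were named after their values were seen. Members and lists were chosen with earlier results of these data known. Structural classes and lists come from general knowledge of the genes. Promoter windows came from RefSeq (GRCr8), and tables were handled with Python 3.11.15, pandas 2.3.3 and numpy 2.4.6. Alternatives were no filter, a mean of at least 6, the methods' variance filter, 1.5-fold minimum and analysis of variance, a repeated quantile normalization, equal array medians, a trended and robust prior, averaging the rows of a gene, the replicate number as a block, other sets of arrays in the fit, and leaving out each array.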

Additional observations from a re-analysis of the deposited data

Results flagged for a closer look

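At 1 day the median deviation of the members was higher in SCI-ES than in SCI and lower in GA than in Sham-GA, and the ES difference less the GA difference was 0.54 on the log2 scale. This difference was not tested for the list as a whole. In 36 of 68 members (52.9%) all 3 SCI-ES arrays lay on one side of the SCI mean and all 3 GA arrays on the other side of the Sham-GA mean, against 11.5% of all 14506 genes, and 17 members did so at 3 days (25%, against 10.3% of all genes) and 6 at 7 days (8.82%, against 8.18%).

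Among the members named in the report, Mrpl49 differed between ES and GA at 1 day by 1.40 (adjusted p = 0.0675), Mrps12 by 0.71 (adjusted p = 0.0876) and Mrpl45 by 0.60 (adjusted p = 0.251). None of these 3 passed the test in limma. At 7 days Mrps18b differed by 0.69 and Mrpl35 by 0.40, both with an adjusted p of 0.9995. These members were named for their differences in the ES or GA comparisons on these same arrays. They were then kept because ES and GA lay on opposite sides. The sizes of their values follow in part from that choice, and no conclusion is drawn from them. No statistical test for a single extreme array was run on groups of 3.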

How the results depend on the processing

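No result changed sign while past the test. The methods' analysis of variance was counted differently, at an unadjusted p under 0.05 with a 1.5-fold minimum. It tested all groups of the SCI experiment together, and for a single GA day the GA effect over all days. For the change of the GA effect it tested the interaction with day. In SCI versus Sham-SCI the count of members past the test was 2 in the fit of all 33 arrays (180 of all genes passed). With an array left out it was 0 to 1 (5 to 65 of all genes). The analysis of variance counted 2 members. In GA 1 day versus Sham-GA 1 day the count past the test was 1 in the fit of all 33 arrays (102 of all genes passed). With an array left out it was 0 to 1 (1 to 197 of all genes). The analysis of variance counted 5 members. In GA 3 days versus Sham-GA 3 days the count past the test was 0 to 19 with an array left out (median -0.436 to -0.181; 0 to 1544 of all genes passed). It was 38 without the replicates 2 of both groups (median -0.549; 3173 of all genes passed). The analysis of variance counted 3 members. For the mean over days the count past the test was 0 to 23 with an array left out (0 to 1501 of all genes). Without the replicates 2 of both 3-day groups it was 35 (3059 of all genes). For the change of the GA effect from day 1 to day 7 the analysis of variance counted 4 members. With an array left out the count past the test was 0 to 1 for SCI-ES 7 days versus SCI-ES 1 day (0 to 108 of all genes) and 0 to 7 for ES less GA at 1 day (1 to 102 of all genes). The share of members above 0 was then 54.4% to 91.2% for SCI-ES 7 days versus SCI, 29.4% to 72.1% for GA 7 days versus Sham-GA 7 days (median -0.062 to 0.070) and 51.5% to 85.3% for ES less GA at 7 days. For Sham-GA 7 days versus Sham-GA 1 day the count of 14 was 7 after quantile normalization, 7 with a 1.5-fold minimum, 4 with the 2 groups alone and 0 to 12 with an array left out. Of all genes, 10.3% passed in the main fit, 6.57% with the 1.5-fold minimum and 539 to 1154 genes with an array left out. For GA 7 days versus GA 1 day the count of 1 was 3 with a mean of at least 6, 2 after quantile normalization, 3 with equal array medians (27.9% of members higher), 0 with the trended prior, 4 with all 33 arrays, 5 with the 2 groups alone and 0 to 2 with an array left out. Of all genes, 12.5% passed in the main fit, against 1.47% of the members, and 1037 to 1620 genes passed with an array left out. With the methods' variance filter, which left 42 to 45 members in the tests, the counts at an unadjusted p under 0.05 were also lower, among them 9 for SCI-ES 1 day versus SCI and 26 for ES less GA at 1 day. The cause of the other changes was not tested.

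The replicate number does not pair the arrays: 9 of 30 same-numbered pairs correlated above 0.1 (-0.718 to 0.612) and 7 matched best with their own number. With the replicate block, the count was 0 for SCI versus Sham-SCI (Mrps18b, adjusted p = 0.0527), 8 for Sham-GA 7 days versus Sham-GA 1 day and 0 for GA 7 days versus GA 1 day.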
